A study of Rattus norvegicus with 26 samples.

Results

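The rat has a pair of genes for the angiotensin II type 1 receptor, Agtr1a and Agtr1b. Arrays read RNA of both in the thoracic aorta of males of the spontaneously hypertensive rat, an inbred strain whose blood pressure is high by inheritance. Members were taken as every array probe outside the controls whose RefSeq accession maps to one of these genes. That gave 2 genes of the 15168 named on the array, each with 1 probe among 30367: A_42_P486203 for Agtr1a, printed at 10 spots of each array, and A_64_P109894 for Agtr1b, printed at 1 spot.

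The type 1 receptor is a cell-surface receptor coupled to G proteins of the Gq family. When angiotensin II binds it on vascular smooth muscle, phospholipase C releases calcium from internal stores and the vessel constricts. Rats and mice carry a pair of genes for it where humans carry a single gene; in rodents Agtr1a is known as the main form in vessels, kidney and liver, and Agtr1b as the form of the adrenal gland and anterior pituitary. Valsartan blocks this receptor and leaves the type 2 receptor free.

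The rats had been dosed by mouth for 4 weeks and were killed at day 28. Of the arrays, 6 came from rats on the high dose of Songling Xuemaikang capsule (SXC, a Chinese herbal medicine), 708.75 mg per kg, 6 from rats on its low dose, 236.25 mg per kg, 6 from rats given valsartan at 21.6 mg per kg, and 8 from rats given saline at 7.5 mL per kg. The series text counts 8 rats for valsartan, of which 6 arrays were analysed here. All groups are hypertensive rats, and a normotensive strain is not part of the samples analysed here; the labels give no ages. Per the labels RNA was extracted from each aorta separately, and an array is treated here as a rat, with an alternative for saline arrays that resemble each other. The whole vessel was used, and in bulk tissue fewer cells of a type and less RNA per cell cannot be told apart.

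The upstream sequences of the genes are shown because the probes moved in opposite directions between groups, and they show which core motifs each copy holds ahead of its start. Each run is the 250 bases before the RefSeq start of the gene in the GRCr8 assembly, read 5′ to 3′ along the gene's strand (minus for both), at chr17:34435433-34435682 for Agtr1a and chr2:104849263-104849512 for Agtr1b. Capitals mark matches on either strand to TATAAA, the core promoter element bound by the TATA-binding protein. They also mark the GC box, for which GGGCGG was searched. The remaining motif marked is CCAAT, the site of nuclear factor Y, which on the other strand reads ATTGG along these lines.
Agtr1a: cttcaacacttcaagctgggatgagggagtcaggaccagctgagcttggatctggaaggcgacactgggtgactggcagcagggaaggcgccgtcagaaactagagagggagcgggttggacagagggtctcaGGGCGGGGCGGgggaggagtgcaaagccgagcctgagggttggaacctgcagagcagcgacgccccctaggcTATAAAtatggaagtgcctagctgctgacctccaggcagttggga
Agtr1b: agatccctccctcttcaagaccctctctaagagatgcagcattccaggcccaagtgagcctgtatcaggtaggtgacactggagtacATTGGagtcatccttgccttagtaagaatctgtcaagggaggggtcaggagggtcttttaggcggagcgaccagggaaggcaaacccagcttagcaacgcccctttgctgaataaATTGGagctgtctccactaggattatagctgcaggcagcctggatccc
The Agtr1a window held 1 TATAAA, 45 bases before the start, and 2 GGGCGG matches that overlap by 1 base, 117 and 112 bases before it, with 0 CCAAT. The Agtr1b window held 0 TATAAA, 0 GGGCGG and 2 CCAAT on the opposite strand, 163 and 48 bases before the start. Of 33469 rat windows of the same length, 12.9% held TATAAA, 30.5% held GGGCGG and 34.0% held CCAAT, so each of these matches is common. The GC content was 60.8% for Agtr1a and 52.8% for Agtr1b, beside a median of 51.2% over all windows. These are matches of letters, and no measurement here bears on whether a factor binds them.

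The scanner files of the treated and saline arrays differ in ways that touch every value below. The 26 arrays lay on 9 slides scanned on 5 days, 0 of those days held both saline and treated arrays, and the saline arrays were scanned 82 days after the last treated one, so against saline, treatment and scan batch cannot be told apart. The 10 arrays of valsartan and of high-dose rats 3 to 6 were scanned at a detector gain of 323 to 325 V, and the others at 353 to 354 V. The share of probes well above background ran from 29.3% to 79.7% on high-dose arrays, 70.6% to 77.1% on low-dose, 32.6% to 56.5% on valsartan and 67.4% to 76.2% on saline arrays. Saline arrays 1 and 5, 2 and 6, and 3 and 7, which lie on different slides, deviated together from their slide means (r = 0.71, 0.66 and 0.87 across probes, against -0.73 to 0.53 for the other pairings of the slides apart from 4 and 8, at -0.03), so the 8 saline arrays may hold fewer independent samples; the labels name them as 8 replicates, and results with these pairs averaged are given below.

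A level here is the log2 processed signal of a probe minus the 75th percentile of all gene probes on its array, so 0 is the level of that percentile. Levels of one probe are compared between arrays; levels of different probes are not compared, since probes differ in how brightly they bind. Differences were tested with limma in 1 fit over the 23763 probes detected (well above background) on 6 or more of the 26 arrays, with Benjamini-Hochberg adjustment over all of them and a call at an adjusted p under 0.05. Both receptor probes passed the filter. Agtr1a stood well above background on 5 of 6 high-dose, 6 of 6 low-dose, 5 of 6 valsartan and 8 of 8 saline arrays, and Agtr1b on all 26.

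Agtr1a RNA was lower in every treated group than in saline. Its levels on the high-dose arrays were -1.04, -1.38, -2.78, -1.38, -1.61 and -1.48. On the low-dose arrays they were -1.005, -0.51, -1.33, -0.76, -0.72 and -1.33. On the valsartan arrays they were -2.18, -1.97, -1.65, -1.59, -1.67 and -1.28, and the 8 saline arrays ran from 0.38 through a median of 0.75 to 1.13. All 18 treated values lie below the lowest saline value, and high-dose array 3 lies apart below the rest of its group. The means were -1.61 ± 0.60 for the high dose (SD, n = 6), -0.94 ± 0.34 for the low dose (SD, n = 6), -1.72 ± 0.31 for valsartan (SD, n = 6) and 0.77 ± 0.24 for saline (SD, n = 8).

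Agtr1b RNA moved the other way and was higher in every treated group. Its levels on the high-dose arrays were 0.65, 0.52, 0.87, 1.53, 1.42 and 1.16. On the low-dose arrays they were 0.28, 0.86, 1.20, 1.04, 0.67 and 0.78. On the valsartan arrays they were 1.31, 1.25, 1.89, 1.35, 2.15 and 1.99, and the saline arrays ran from -1.88 through a median of -1.11 to -0.24. The lowest treated value, 0.28 on low-dose array 1, is above the highest saline value, and the saline arrays are the most spread of the 4 groups. The means were 1.02 ± 0.41 for the high dose (SD, n = 6), 0.80 ± 0.32 for the low dose (SD, n = 6), 1.66 ± 0.40 for valsartan (SD, n = 6) and -1.09 ± 0.63 for saline (SD, n = 8).

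**Figure D1:**
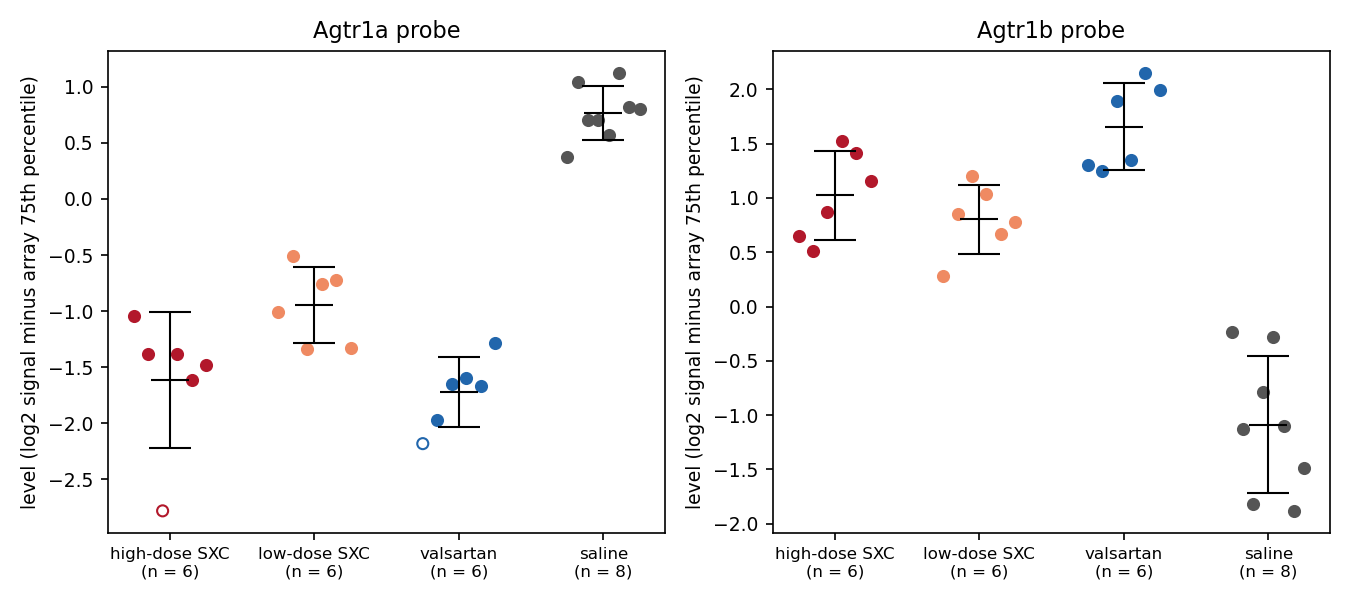
Level of the Agtr1a probe (left) and of the Agtr1b probe (right) on each array, as log2 processed signal minus the array's 75th percentile, with the group mean and SD as bars. Open circles are arrays where under 0.5 of the probe's spots were well above background; for Agtr1a all treated arrays sit below the 8 saline arrays, and for Agtr1b all sit above them.

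The high dose of SXC came against saline first, to see how the receptor genes differ with the herbal treatment at its stronger setting. Agtr1a fell by 2.38 on the log2 scale (SE 0.21; 5.21-fold lower; limma adjusted p = 1.40e-09) and Agtr1b rose by 2.11 (SE 0.25; 4.32-fold higher; limma adjusted p = 9.90e-08). Calls were common in this comparison: 55.8% of tested probes passed, 25.4% lower and 30.4% higher. Groups that do not overlap, as seen for both genes, were found for 11.6% of probes in the lower direction and 16.6% in the higher. A change at least as large as that of Agtr1a was seen in 9.79% of tested probes and one as large as that of Agtr1b in 12.6%, while the median change of all probes was 0.09.

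Low-dose SXC was compared with saline in the same fit. Agtr1a fell by 1.71 (SE 0.21; 3.27-fold lower; limma adjusted p = 7.52e-07) and Agtr1b rose by 1.89 (SE 0.25; 3.71-fold higher; limma adjusted p = 1.55e-06). Here 38.6% of tested probes passed, 16.7% lower and 22.0% higher, and groups did not overlap for 15.2% of probes in the lower direction and 15.1% in the higher. Changes at least as large were seen in 7.90% of probes for Agtr1a and 6.12% for Agtr1b. All low-dose arrays were scanned at the same gain level as saline and had like shares of probes above background, so in this comparison the gain did not differ between the groups.

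Valsartan, the drug that blocks this receptor and per the series text the positive control, was compared with saline as well. Agtr1a fell by 2.49 (SE 0.21; 5.62-fold lower; limma adjusted p = 5.78e-10) and Agtr1b rose by 2.75 (SE 0.25; 6.71-fold higher; limma adjusted p = 1.47e-09). Of tested probes 57.2% passed, 27.1% lower and 30.1% higher, and groups did not overlap for 14.3% in the lower direction and 15.7% in the higher. Changes at least as large were seen in 8.53% of probes for Agtr1a and 6.74% for Agtr1b. The 3 comparisons share the saline arrays, so they are not separate observations of a difference from saline.

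Every one of these 6 differences passed the limma test again when detector gain was fitted as a block and when the saline pairs were averaged to 3 samples. The averaged setting leaves out saline arrays 4 and 8. The gain block could not alter the size of the low-dose differences, since low-dose and saline arrays share a gain level (Agtr1a -1.71 in both fits). For the high dose and valsartan the gain term rests on the high-dose arrays alone, 2 at the higher and 4 at the lower gain. Those high-dose arrays also differ in scan day. With gain in the fit, Agtr1a changed by -1.98 (limma adjusted p = 3.12e-05) with the high dose and -1.89 (limma adjusted p = 0.00219) with valsartan, and Agtr1b by 1.67 (limma adjusted p = 0.00104) and 2.08 (limma adjusted p = 0.00364). With 3 averaged saline samples the limma adjusted p was between 3.20e-06 and 0.000446 for Agtr1a and between 1.13e-06 and 0.000196 for Agtr1b. The scan day of the saline arrays cannot be separated in this way.

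The authors' deposited log2 values, which have nearly the same distribution on every array, gave the same directions. In that table Agtr1a averaged 6.70 ± 1.26 on high-dose arrays (SD, n = 6), 7.86 ± 0.38 on low-dose (SD, n = 6), 6.87 ± 0.34 on valsartan (SD, n = 6) and 9.60 ± 0.26 on saline arrays (SD, n = 8). Agtr1b averaged 9.97 ± 0.48 on high-dose (SD, n = 6), 9.62 ± 0.31 on low-dose (SD, n = 6), 10.57 ± 0.33 on valsartan (SD, n = 6) and 7.70 ± 0.64 on saline arrays (SD, n = 8). By rank among all gene probes of an array, Agtr1a had a median percentile of 61.7 on high-dose, 68.5 on low-dose, 60.1 on valsartan and 80.2 on saline arrays. Agtr1b had a median percentile of 82.6 on high-dose, 80.5 on low-dose, 86.0 on valsartan and 66.4 on saline arrays.

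The 10 Agtr1a spots allow the measurement error within an array to be seen. Taken spot by spot, with outlier spots kept, the change against saline ran from -2.49 to -1.83 for the high dose, -1.77 to -1.61 for the low dose and -2.55 to -2.16 for valsartan, so each of the 10 spots fell in each comparison. The -1.83 includes an outlier spot of high-dose array 6 (level 1.79). The median over spots was -2.39 (high dose), -1.71 (low dose) and -2.48 (valsartan). The median SD between spots of an array was 0.08 on high-dose, 0.06 on low-dose, 0.14 on valsartan and 0.06 on saline arrays, well under the SD between arrays of a group. On high-dose array 3 and valsartan array 1, 0 of 10 spots were well above background, and on valsartan array 2, 5 of 10 were; the levels of these arrays are bounds more than measurements. Without these 3 arrays Agtr1a changed by -2.15 with the high dose and -2.31 with valsartan (limma adjusted p = 7.26e-10 and 7.74e-10). Over all arrays 14 of the Agtr1a spots were marked as outliers by the scanner software and left out of the array levels and spot SDs, and 0 spots of either gene were saturated. The Agtr1b probe has 1 spot per array, so no such check exists for it; its processed signal ran from 454 to 1164 on high-dose, 753 to 1286 on low-dose, 766 to 1455 on valsartan and 202.2 to 698 on saline arrays, before scaling, against a local background of at most 31.

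**Figure D2:**
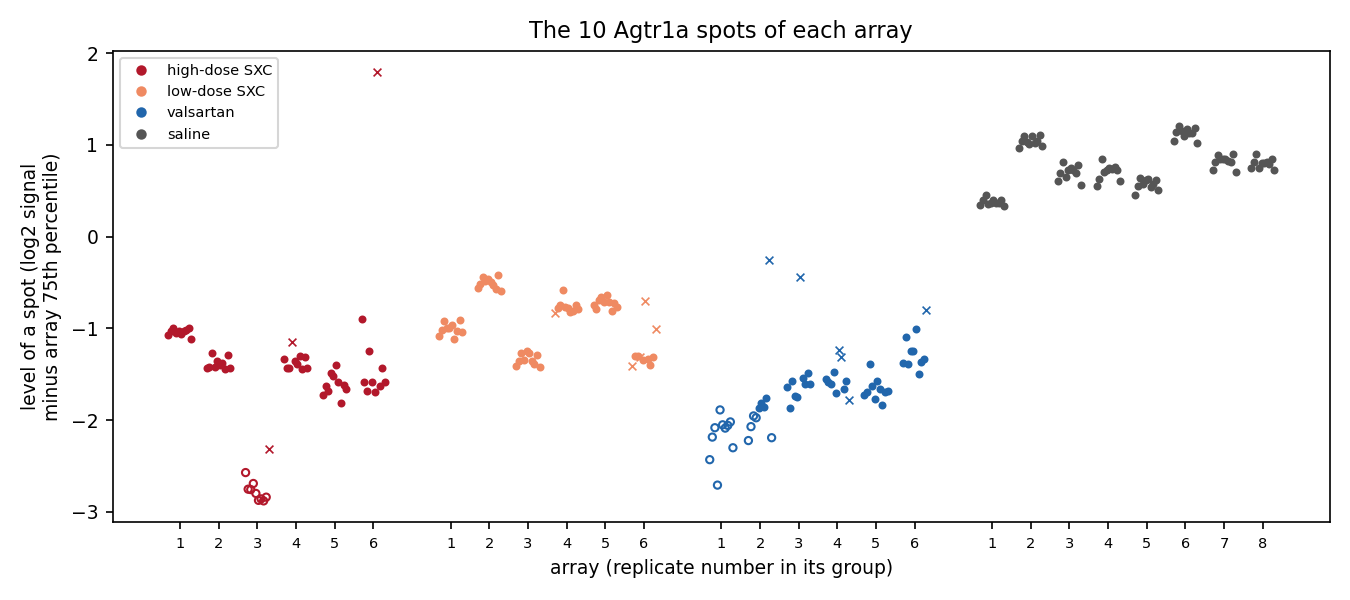
Level of each of the 10 Agtr1a spots on each array, as log2 processed signal minus the array's 75th percentile. Filled circles are spots well above background, open circles spots that are not, and crosses outlier spots left out of the mean; the spots of an array lie close together beside the gap between treated and saline arrays.

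The difference between the probes on the same array does not depend on how the array is scaled. Agtr1b minus Agtr1a was 2.64 ± 0.74 on high-dose arrays (SD, n = 6), 1.75 ± 0.50 on low-dose (SD, n = 6), 3.38 ± 0.30 on valsartan (SD, n = 6) and -1.86 ± 0.78 on saline arrays (SD, n = 8). The lowest treated value was 1.29, on low-dose array 1, and the highest saline value was -0.61. The absolute size of this difference says nothing of which receptor RNA is more abundant, and it was not tested because it combines the 2 genes. Within groups the genes did not move as mirror images: across the arrays of a group their r was -0.02 with the high dose (n = 6), -0.14 with the low dose (n = 6), 0.66 with valsartan (n = 6) and -0.50 with saline (n = 8).

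The treated groups were compared with each other to see whether dose and drug differed. Agtr1a was lower with the high than with the low dose by -0.67 (SE 0.23; limma adjusted p = 0.0328), in a comparison where 25.3% of probes passed, 10.5% lower and 14.9% higher. Without high-dose array 3 the difference was -0.44 (limma adjusted p = 0.102), and it also missed the threshold without low-dose array 2, 4 or 5 or high-dose array 5 (limma adjusted p between 0.0561 and 0.0890). The 2 high-dose arrays scanned at the gain of the low-dose arrays averaged -1.21, against -0.94 for the 6 low-dose arrays. On the scan day that holds both groups the difference was -0.04 (2 arrays each), and on the slide that holds both it was 0.12 (2 high-dose arrays and 1 low-dose array).

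Agtr1b differed little between the doses, by 0.22 (SE 0.27; 95% interval -0.33 to 0.76; limma adjusted p = 0.562), so a difference of up to 0.76 is within the interval. The high-dose arrays at the low-dose group's gain averaged 0.58 (n = 2), against 0.80 for the low dose (n = 6). The 4 high-dose arrays at the lower gain averaged 1.24 for Agtr1b and -1.81 for Agtr1a. Agtr1a and Agtr1b therefore stood further from saline on the lower-gain arrays of the same treatment group, and the part of gain in the differences between groups was not tested beyond the fit with gain as a block.

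Valsartan set against the low dose gave a lower Agtr1a (-0.78, SE 0.23; limma adjusted p = 0.0127) and a higher Agtr1b (0.85, SE 0.27; limma adjusted p = 0.0187), in a comparison where 26.7% of probes passed, 14.0% lower and 12.7% higher. The Agtr1b values did not overlap between these groups, as was the case for 6.50% of probes in the higher direction, while the Agtr1a values did. All valsartan arrays were scanned at the lower gain and all low-dose arrays at the higher gain. With gain as a block, which rests on the high-dose arrays alone, the differences were -0.18 for Agtr1a and 0.19 for Agtr1b, and neither passed (limma adjusted p = 0.988 and 0.990).

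Valsartan and the high dose gave values that overlap for both genes, and 0.850% of probes passed, 0.703% lower and 0.147% higher. Agtr1a differed by -0.11 (95% interval -0.58 to 0.36; limma adjusted p = 0.852) and Agtr1b by 0.63 (95% interval 0.09 to 1.18; limma adjusted p = 0.243). The 95% intervals here and above are per probe and, unlike the p, not adjusted for the number of probes tested. That of Agtr1b can therefore leave out 0 where the adjusted p does not pass. On the scan day that holds all 6 valsartan arrays and 2 high-dose arrays, the differences of means were 0.41 for Agtr1a and 0.64 for Agtr1b. In order of mean level, Agtr1a ran from valsartan through the high and low doses to saline, and Agtr1b from saline through the low and high doses to valsartan. The neighbours valsartan and high dose were not separated by the test for either gene, nor were the doses for Agtr1b.

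**Figure D3:**
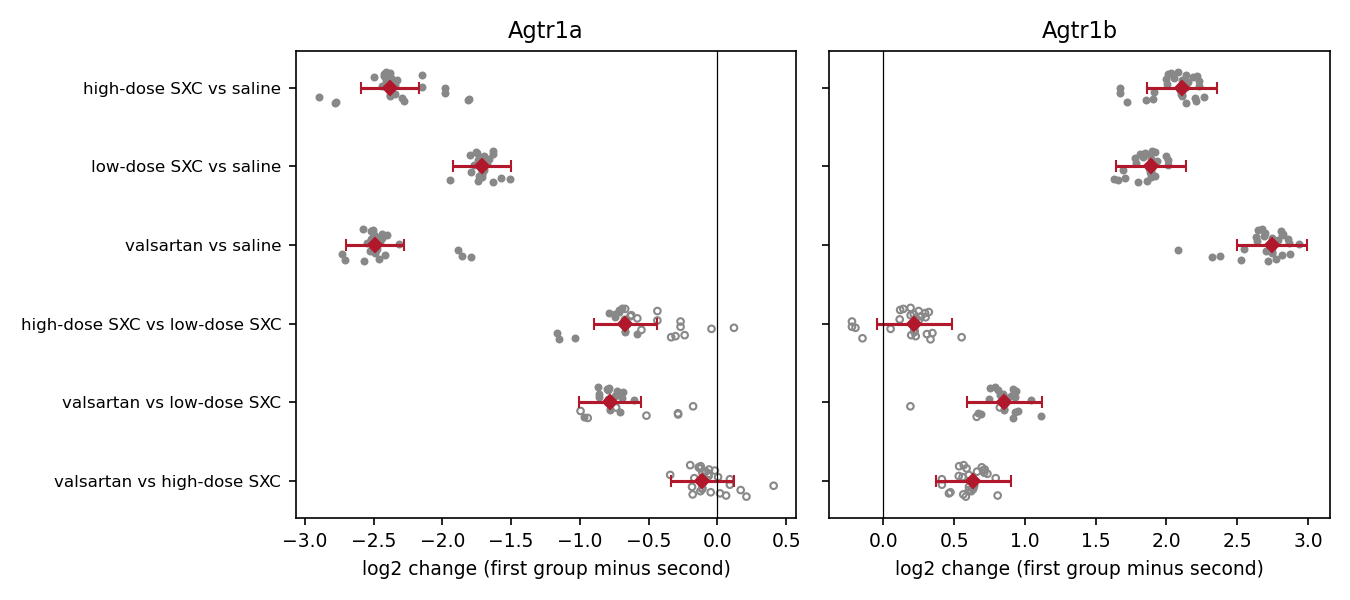
Log2 difference of Agtr1a (left) and Agtr1b (right) for the 6 comparisons, first group minus second. Diamonds with bars are the fitted values with SE, and grey points are the alternative settings, one each, filled where the adjusted p is under 0.05; against saline every point keeps its sign and is filled, and between treated groups many are open.

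The samples were checked against markers of the labelled tissue. Smooth muscle markers were strong on all arrays: Acta2, smooth muscle actin, averaged 5.88 on high-dose, 6.79 on low-dose, 5.61 on valsartan and 6.53 on saline arrays, and Myh11, the smooth muscle myosin, 5.45, 5.76, 5.51 and 5.86 on the same groups. The median of the 6 smooth muscle markers ran from 4.77 to 4.95 on high-dose, 4.88 to 5.43 on low-dose, 4.73 to 5.14 on valsartan and 3.59 to 5.31 on saline arrays. Against saline 1 rose and 2 fell with the high dose and with valsartan, and 2 rose and 0 fell with the low dose. Over all tested probes 30.4% were called higher and 25.4% lower with the high dose, 22.0% and 16.7% with the low dose, and 30.1% and 27.1% with valsartan. Agtr1b is known from adrenal gland and pituitary, so markers of these tissues were read as well. Of 6 adrenal markers, Star, which brings cholesterol into steroid-making mitochondria, and Nr5a1, a regulator of steroid-making cells, were each well above background on 1 of 26 arrays. The other 4 were tested: 2 rose and 0 fell with the high dose and with valsartan, and 1 rose and 0 fell with the low dose, with median changes of 1.15 (high dose), 0.05 (low dose) and 1.34 (valsartan).

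The adrenal markers that rose, named after their values were seen, were Cyp21a1, the steroid 21-hydroxylase, and Cyp11b1, the steroid 11-beta-hydroxylase. Cyp21a1 was well above background on all 26 arrays and rose by 2.36 with the high dose, 1.89 with the low dose and 2.29 with valsartan (limma adjusted p = 6.97e-07, 3.39e-05 and 1.05e-06). Cyp11b1 rose by 4.65 with the high dose and 4.97 with valsartan (limma adjusted p = 3.99e-07 and 1.44e-07) and changed by 1.28 with the low dose (adjusted p = 0.0931); it stood well above background on 5 of 6 high-dose, 6 of 6 low-dose, 4 of 6 valsartan and 2 of 8 saline arrays. The summed adrenal signal, in multiples of each array's 75th percentile, was 1.83 to 10.4 on high-dose, 1.62 to 4.63 on low-dose, 3.03 to 7.09 on valsartan and 0.826 to 1.74 on saline arrays. It was above every saline array on all high-dose and valsartan arrays and overlapped saline at the low dose, and its part in the Agtr1b difference was not tested.

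Of 6 pituitary markers, 4 were not tested: Prl, prolactin, was well above background on 0 of 26 arrays, and Cga, the shared subunit of glycoprotein hormones, on 5. Between 1 and 4 of the 6 were well above background on a high-dose array, 2 and 3 on a low-dose, 0 and 2 on a valsartan and 2 and 3 on a saline array. Of the 2 tested, 1 rose and 0 fell with the high dose, 0 passed with the low dose, and 1 rose and 1 fell with valsartan. The summed pituitary signal was 0.519 to 1.95 on high-dose, 0.494 to 0.590 on low-dose, 0.685 to 1.72 on valsartan and 0.431 to 0.985 on saline arrays. The 1.95 and 1.72 were on high-dose array 3 and valsartan array 1, each with 1 of 6 markers well above background. The median of these mostly dim markers was -4.30 on high-dose, -6.70 on low-dose, -4.34 on valsartan and -7.03 on saline arrays. The level of dim probes thus differed between groups, and dim probes also enter the adrenal sums above.

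Markers of other cells of the vessel moved with the groups. Of 6 macrophage markers 5 fell and 0 rose in each treated group against saline, and of 5 white fat markers 4 fell and 0 rose. Of 6 endothelial markers 5 fell and 1 rose in each treated group, and all 6 red cell markers fell. Brown fat markers moved less evenly: of 5, 1 fell with the high dose, 2 with the low dose and 4 with valsartan, and 0 rose. On a valsartan array 2 to 3 of these brown fat markers were well above background. Over all tested probes, 25.4% were called lower with the high dose, 16.7% with the low dose and 27.1% with valsartan. Of 5 fibroblast markers 3 fell with the high dose, 2 with the low dose and 3 with valsartan, and 0 rose. The median fibroblast marker level was 1.63 to 3.06 on high-dose, 2.58 to 3.25 on low-dose, 2.56 to 3.52 on valsartan and 4.32 to 5.95 on saline arrays, with no overlap with saline, while their summed signal overlapped (181 to 294, 275 to 327 and 177 to 282 in these treated groups, and 189 to 433 on saline arrays). The median macrophage marker level ran from -2.50 to -0.78 on high-dose, -1.14 to -0.61 on low-dose, -1.99 to -0.73 on valsartan and -0.24 to 0.59 on saline arrays, so all treated arrays lie below all saline arrays. As the summed signal of the 6 macrophage markers, in multiples of each array's 75th percentile, the range was 2.24 to 3.72 on high-dose, 3.34 to 5.16 on low-dose, 1.94 to 3.21 on valsartan and 11.1 to 23.6 on saline arrays. No defining macrophage marker was at 0 in all groups, but Mrc1, the mannose receptor, stood well above background on 0 of 6 high-dose and 0 of 6 valsartan arrays.

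Across arrays, r between Agtr1a and the macrophage median was 0.87 with the high dose (n = 6), 0.56 with the low dose (n = 6), 0.89 with valsartan (n = 6) and 0.86 with saline (n = 8), and 0.69 over the 6 saline arrays left without the 2 farthest in marker level. The high-dose value rests on array 3, where 0 of 10 Agtr1a spots and 1 of 6 macrophage markers were well above background: without it r was -0.26 (5 arrays). Without low-dose array 2 the low-dose r was 0.11, and with 1 array left out the valsartan r was at least 0.79. Fibroblast markers gave r = 0.94, 0.40 and 0.81 in the high-dose, low-dose and valsartan groups (n = 6 each) and 0.26 with saline (n = 8); without high-dose array 3 the high-dose r was 0.68. These lists were picked from 9 after their values were seen, and points of a correlation share array brightness and tissue dissection. As 0 of 18 treated arrays reach the macrophage level of any saline array, the groups could not be compared at a matched level, and the part of macrophage or fibroblast content in the Agtr1a difference was not tested.

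Within saline Agtr1b ran against the white fat markers (r = -0.98, n = 8) and the endothelial markers (r = -0.94) and with the smooth muscle markers (r = 0.81). Like those for Agtr1a, these lists were picked after their values were seen. In the treated groups the endothelial r was -0.20 with the high dose, -0.82 with the low dose and -0.49 with valsartan (n = 6 each). The smooth muscle r was -0.62, -0.04 and 0.62 in the same order, so the saline relation was not seen in every group. Red cell markers gave r = 0.64 with saline, 0.89 with the high dose, -0.93 with the low dose and 0.14 with valsartan. Brown fat markers gave r = -0.39 with saline, -0.40 with the high dose, 0.15 with the low dose and 0.05 with valsartan. Of the 6 endothelial markers, 1 to 2 were well above background on a valsartan array and 1 to 5 on a high-dose array. The endothelial r of these groups therefore rest in part on dim probes. The endothelial median was -3.18 to -2.62 on high-dose, -3.24 to -2.36 on low-dose, -3.83 to -2.45 on valsartan and -1.17 to -0.48 on saline arrays, so no treated array reached the saline level, and the part of endothelial content in the Agtr1b difference was not tested. Saline arrays 3, 7 and 8 had the highest white fat medians, 5.55, 5.42 and 4.84, and the lowest Agtr1b levels, -1.82, -1.88 and -1.49. Saline arrays 2, 6 and 4 had white fat medians of 1.91, 1.76 and 1.19 with Agtr1b at -1.12, -1.10 and -0.78. Saline arrays 1 and 5 had the lowest medians, -0.36 and -0.72, and the highest Agtr1b levels, -0.24 and -0.28. Between these sets of saline arrays, a higher fat marker level went with a lower Agtr1b, and within a set the order did not always hold. The sets include the pairs that resemble each other.

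On 3 treated arrays the white fat median lay within the saline range. High-dose array 6 (white fat -0.61) had Agtr1b at 1.16, high-dose array 2 (white fat -0.43) had 0.52 and low-dose array 2 (white fat -0.06) had 0.86. Saline arrays 1 and 5, which have the lowest saline medians and resemble each other, had -0.24 and -0.28. By summed white fat signal these arrays are less alike, at 24.4, 18.4 and 29.9 multiples of the 75th percentile on the treated arrays in that order and 12.0 and 11.7 on the saline arrays; the part of fat content was not tested. Over all arrays the white fat medians ran from -2.41 to -0.43 with the high dose, -2.75 to -0.06 with the low dose, -3.53 to -2.65 with valsartan and -0.72 to 5.55 with saline. The summed white fat signal, in multiples of the 75th percentile, was 4.89 to 24.4 on high-dose, 5.94 to 29.9 on low-dose, 2.53 to 14.3 on valsartan and 11.7 to 243.7 on saline arrays. Within the treated groups r between Agtr1b and the white fat median was 0.09, 0.15 and -0.03 for high dose, low dose and valsartan (n = 6 each). Of the 5 markers, 1 to 3 were well above background on a valsartan array and 2 to 4 on a high-dose array. The r of these groups therefore rest in part on dim probes.

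**Figure D4:**
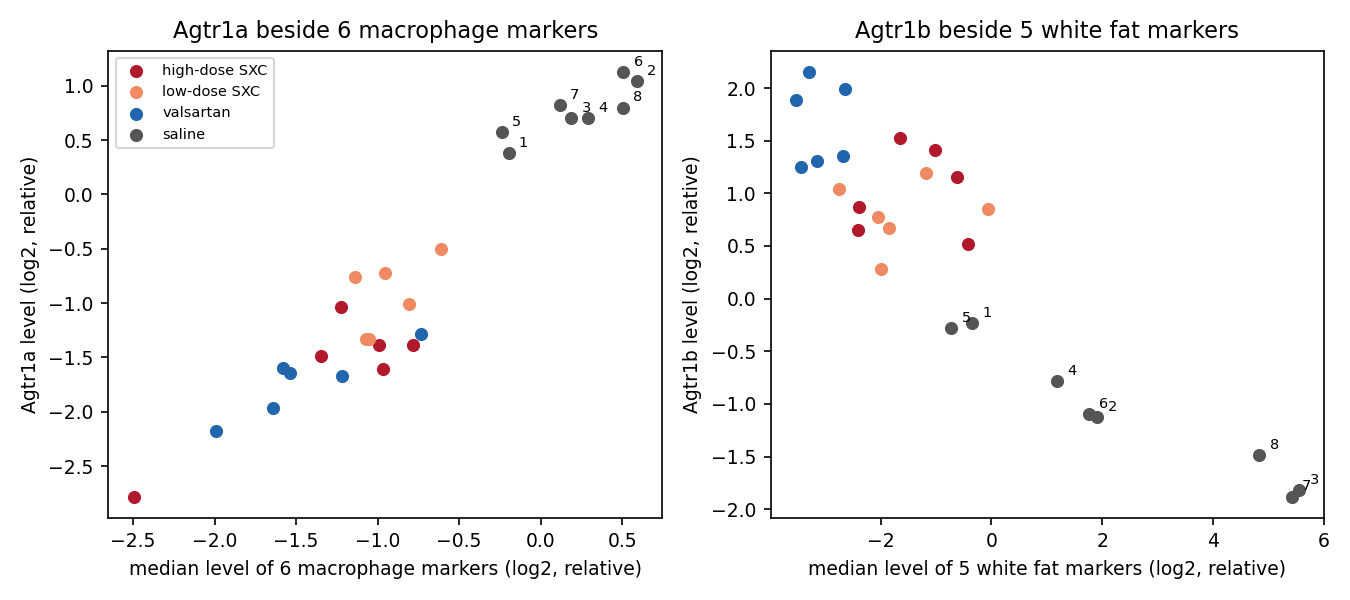
Level of Agtr1a beside the median level of 6 macrophage markers (left) and of Agtr1b beside the median level of 5 white fat markers (right), 1 point per array, all as log2 relative to the array's 75th percentile, with saline arrays numbered. No treated array reaches the saline range of macrophage markers; 3 treated arrays reach the saline range of white fat markers, and Agtr1b is above every saline array on all 18 treated arrays.

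The genes whose levels over the 26 arrays were most like those of the receptors were listed by Pearson r among 12238 genes. For Agtr1a these were Scara5, a scavenger receptor that takes up ferritin (r = 0.98), Pi16, a gene of adventitial fibroblasts (0.98), Papss2, which makes the sulphate donor for sulphation (0.97), C4a, complement component 4 (0.97), and RT1-Da, an MHC class II chain (0.97). With the group means taken out, the same pairs had r = 0.82, 0.83, 0.85, 0.69 and 0.69. For Agtr1b they were Cdc23, a subunit of the anaphase-promoting complex (0.95), Msx1, a homeobox factor (0.95), Layn, a hyaluronan receptor (0.94), Zfp275, a zinc finger gene (0.94), and Pde1a, a calcium-dependent phosphodiesterase (0.93). Within groups these had r = 0.80, 0.68, 0.76, 0.81 and 0.67. The points share group, batch and array brightness, and these r describe the ranking only.

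Other angiotensin receptors gave little signal. Agtr2, the type 2 receptor, stood well above background on 1 of 6 high-dose, 0 of 6 low-dose, 1 of 6 valsartan and 0 of 8 saline arrays and was not tested. Mas1, the receptor for angiotensin 1-7, was well above background on 5 of 26 arrays, and Mrgprd, another receptor of shorter angiotensin peptides, on 1 of 26. Atp6ap2, an accessory protein of the vacuolar proton pump, was the tested member of this list: it fell by 0.81 with the high dose (limma adjusted p = 0.00283), a call lost with detector gain as a block (-0.42), and changed by -0.30 with the low dose (adjusted p = 0.298) and -0.43 with valsartan (adjusted p = 0.0965), which did not pass.

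Among genes that form and cleave angiotensin peptides, 6 of 8 tested members fell and 1 rose with the high dose, 5 fell and 1 rose with the low dose, and 6 fell and 1 rose with valsartan. The shares of all tested probes were 25.4% lower and 30.4% higher with the high dose, 16.7% and 22.0% with the low dose, and 27.1% and 30.1% with valsartan, and the counts of the lists below stand beside the same shares. The median log2 change of the list was -1.47 with the high dose, -1.33 with the low dose and -1.54 with valsartan, beside 0.09, 0.08 and 0.11 over all probes tested. Agt, angiotensinogen, from which all angiotensins are cut, averaged -1.46 ± 0.89 with the high dose (SD, n = 6), -1.24 ± 0.59 with the low dose (SD, n = 6), -2.21 ± 0.92 with valsartan (SD, n = 6) and 1.03 ± 1.61 with saline (SD, n = 8). Agt is made by fat tissue as well as by liver, and its saline values were uneven, from -1.14 to 2.94. Its changes were -2.49 (high dose), -2.28 (low dose) and -3.25 (valsartan), with limma adjusted p of 0.000517, 0.00211 and 2.46e-05.

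Cma1, the mast cell chymase that makes angiotensin II without the converting enzyme, changed by -4.14 with the high dose and -4.02 with the low dose, both of which passed; 3 of 6 high-dose arrays had it well above background. It was well above background on 0 of 6 valsartan arrays, where it was at least 6.50-fold lower than on saline arrays (fitted means -3.84 and 0.21; limma adjusted p = 7.02e-08). Thop1, an oligopeptidase that turns angiotensin I into angiotensin 1-7, rose by 1.46 with the high dose, 1.11 with the low dose and 1.16 with valsartan. Anpep, an aminopeptidase that trims angiotensin III, changed by -1.79 with the high dose and -2.03 with the low dose, which passed, but stood well above background on 1 of 6 high-dose and 0 of 6 valsartan arrays, so that no fold is given for valsartan; with normexp background correction its high-dose change was -0.20 and did not pass. Ace, the converting enzyme, named here after its values were seen, changed by 0.26, -0.19 and -0.02 and did not pass in any group (limma adjusted p = 0.299, 0.504 and 0.932). With detector gain as a block, 3 members fell and 1 rose with the high dose, 3 fell and 0 rose with valsartan, and the falls of Agt in these groups and the rise of Thop1 with valsartan did not pass. Calls dropped over the whole array in that fit: of 23763 tested probes 6044 passed with the high dose and 2928 with valsartan. Without the block these numbers were 13259 and 13593.

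Of 8 tested genes that handle the receptor at the membrane, 2 rose and 3 fell with the high dose, 0 rose and 1 fell with the low dose, and 2 rose and 4 fell with valsartan; median changes were -0.26, -0.28 and -0.39. The difference of these counts from the shares of all probes given above was not tested. Rgs5, which shortens Gq signals in vascular muscle cells and pericytes, fell in all 3 groups, with changes of -2.12 for the high dose, -2.09 for the low dose and -2.49 for valsartan (limma adjusted p = 2.18e-06, 7.00e-06 and 2.03e-07). Rgs5 was well above background on 2 of 6 valsartan arrays, so the size of its valsartan change is uncertain. Grk2, a kinase that marks activated receptors for uptake, averaged 1.72 ± 1.38 with the high dose (SD, n = 6), -2.05 ± 1.36 with the low dose (SD, n = 6), 2.16 ± 0.35 with valsartan (SD, n = 6) and -2.57 ± 0.28 with saline (SD, n = 8). Its changes were 4.29 with the high dose and 4.73 with valsartan (limma adjusted p = 4.09e-08 and 8.13e-09), and 0.52 with the low dose, which did not pass (adjusted p = 0.407). The Grk2 probe followed scan batch within both SXC groups. On the scan day that holds both, it was -0.30 and 0.29 on high-dose arrays 1 and 2 and -0.44 and -0.15 on low-dose arrays 1 and 6. The other 4 high-dose arrays, at the lower gain, ran from 2.15 to 2.90, and the other 4 low-dose arrays, scanned on another day, from -3.06 to -2.85.

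Grk5, a related kinase, fell by 0.72 with the high dose and fell by 1.53 with valsartan (limma adjusted p = 0.00205 and 1.69e-07) and changed by -0.44 with the low dose (adjusted p = 0.0661). Cav1, the caveolar coat protein, fell by 0.69 with the high dose and fell by 0.82 with valsartan (limma adjusted p = 1.01e-05 and 8.48e-07) and changed by -0.20 with the low dose (adjusted p = 0.158). Agtrap, a protein that binds the receptor's tail and draws it inside the cell, changed by 0.06 with the high dose and 0.23 with the low dose, neither of which passed, and rose by 0.48 with valsartan (limma adjusted p = 0.0338). Arrb2, a beta-arrestin, fell by 0.92 with valsartan (limma adjusted p = 0.0326), where it was well above background on 3 of 6 arrays, and it changed by -0.54 with the high dose and -0.75 with the low dose, which did not pass. The Agtrap call was lost without saline array 2, 3, 6, 7 or 8 or valsartan array 3, 4, 5 or 6 (changes 0.34 to 0.47), and the Arrb2 call without saline array 2 or 6 or valsartan array 1, 2, 5 or 6 (changes -0.91 to -0.69). With detector gain as a block, the changes of Agtrap, Arrb2 and Cav1 with valsartan and of Grk5 with either the high dose or valsartan did not pass.

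Among genes that couple the receptor to the cell, 5 of 13 rose and 4 fell with the high dose, 2 rose and 2 fell with the low dose, and 3 rose and 4 fell with valsartan, with median changes of 0.14, -0.03 and -0.14, and these shares of the list are near those of all probes. Itpr1, the calcium release channel opened by inositol trisphosphate, rose by 0.46 with the high dose, 1.14 with the low dose and 0.70 with valsartan (limma adjusted p = 0.00361, 2.03e-07 and 5.41e-05). Jak2, a kinase recruited by the receptor, fell in the same order, with changes of -1.49, -1.57 and -1.52 (limma adjusted p = 6.80e-07, 1.03e-06 and 5.27e-07). Prkcd, a protein kinase C, rose by 0.44, 0.90 and 0.43 (limma adjusted p = 0.0425, 0.000330 and 0.0455). The Prkcd calls for the high dose and valsartan were lost without saline array 3, 7 or 8, without high-dose array 1, 4, 5 or 6 and without valsartan array 4, 5 or 6 (changes 0.32 to 0.46). Rock2, a kinase that keeps muscle contracted, fell by 1.67 with the high dose and fell by 1.94 with valsartan, and changed by -0.81 with the low dose (limma adjusted p = 0.000311, 5.28e-05 and 0.0749). Rock2 was well above background on 3 of 6 valsartan arrays. Gna12, a G protein alpha subunit, rose by 1.68 with the high dose (limma adjusted p = 0.000100), changed by 0.67 with the low dose (adjusted p = 0.105), and was well above background on 0 of 6 valsartan arrays. With the high dose it was well above background on 4 of 6 arrays. High-dose array 1 stood at -0.85 and the others between -3.47 and -2.78, so much of that rise comes from 1 array. Scaled by the array median, the rises of Itpr1 (0.07) and Prkcd (0.05) with the high dose did not pass. With detector gain as a block, the changes of Prkcd and Rock2 with the high dose and valsartan did not pass, and 2 members rose and 1 fell with the high dose, and 1 rose and 1 fell with valsartan. Of all 23763 tested probes, 6044 passed in that fit with the high dose and 2928 with valsartan.

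Of 16 genes known to be induced by angiotensin II in vessels, 7 fell and 3 rose with the high dose, 5 fell and 3 rose with the low dose, and 8 fell and 1 rose with valsartan; the median changes were -0.27, -0.04 and -0.57. Among all tested probes 25.4%, 16.7% and 27.1% were called lower and 30.4%, 22.0% and 30.1% higher in the same order, and the balance of falls and rises in the list was not tested. Il6, the cytokine interleukin 6, fell by 2.46 with the high dose, where it was well above background on 2 of 6 arrays, fell by 3.25 with the low dose and was at least 2.03-fold lower with valsartan, where it was well above background on 0 of 6 arrays (limma adjusted p = 1.31e-07, 6.51e-09 and 2.11e-08). Edn1, the precursor of the vasoconstrictor endothelin 1, fell by 2.67 with the high dose, again with 2 of 6 arrays well above background, fell by 2.41 with the low dose and was at least 1.75-fold lower with valsartan, also with 0 of 6 arrays well above background (limma adjusted p = 1.26e-06, 1.33e-05 and 2.98e-05). Icam1, an adhesion molecule for leukocytes, changed by -1.48, -1.51 and -1.61 in the high-dose, low-dose and valsartan groups, a fall in each (limma adjusted p = 1.21e-06, 2.39e-06 and 3.35e-07). Vcam1, another adhesion molecule, rose by 1.56, 1.91 and 1.63 (limma adjusted p = 1.42e-05, 2.35e-06 and 7.72e-06). Il6 and Edn1 are also made by macrophages and endothelium, whose markers were lower in these groups, and the part of cell content in their changes was not tested. With detector gain as a block, 3 members of this list fell and 1 rose with the high dose, and 2 fell and 1 rose with valsartan, where the Edn1 change did not pass. In that fit 6044 of all 23763 tested probes passed with the high dose and 2928 with valsartan. Of the lists, 3 genes of receptor coupling and handling (Arap1, Prkca and Rock1) and the peptidase gene Lnpep were not found on the array by symbol.

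**Figure D5:**
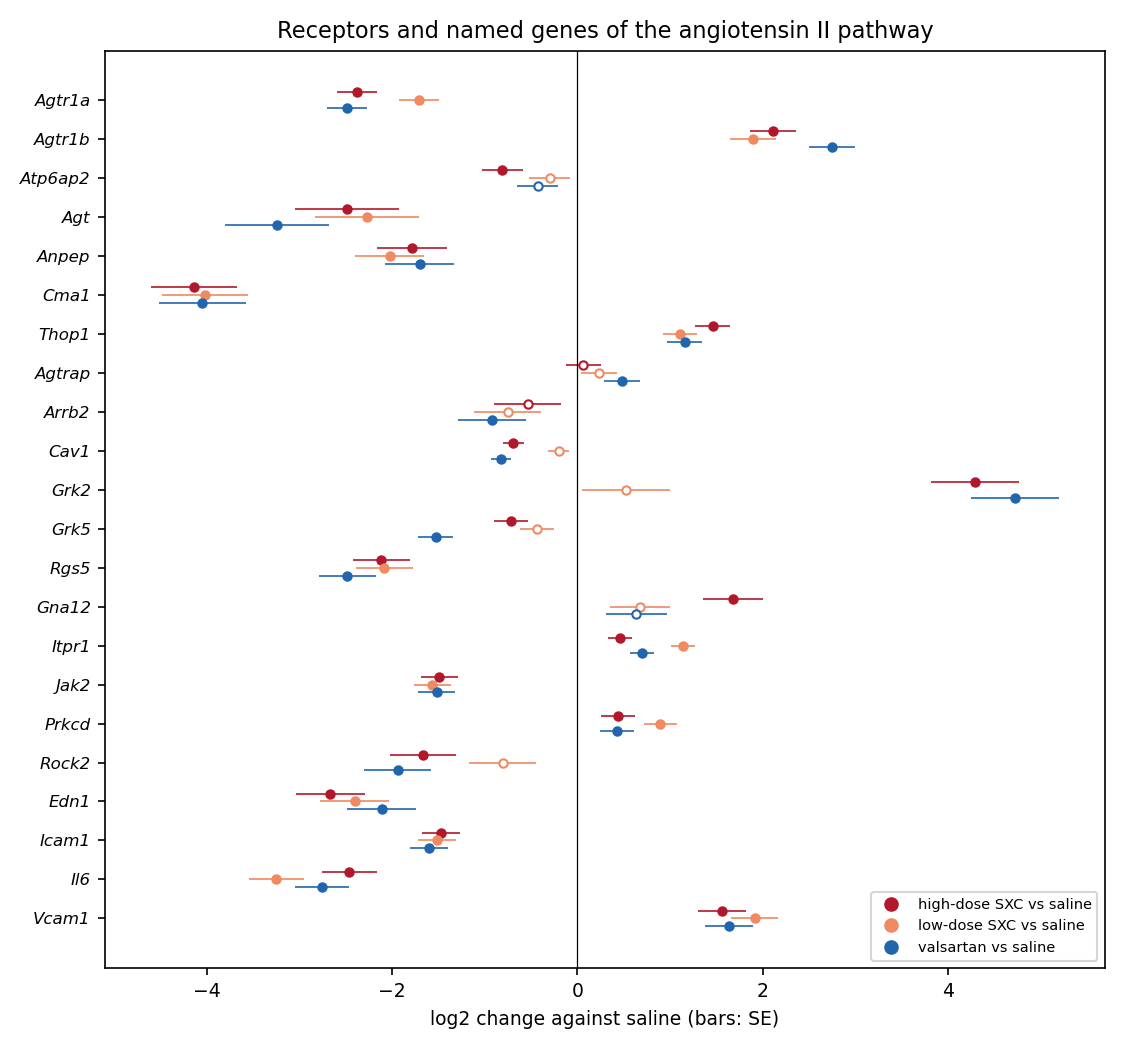
Log2 change against saline (x axis, bars are SE) of the receptors and 20 named genes of the pathway in the 3 treated groups (high dose, low dose, valsartan). Filled points passed at an adjusted p under 0.05; for valsartan Cma1, Anpep, Gna12, Il6 and Edn1 were well above background on 0 of 6 arrays, so their valsartan points are fitted values of dim probes. Agtr1b, Thop1, Itpr1, Prkcd and Vcam1 rose in all 3 comparisons.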

How the data were processed

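RNA of rat thoracic aorta was read on 26 1-colour Agilent arrays (Cy3). Per the file headers, the authors quantified the arrays with Agilent Feature Extraction 11.0.1.1; that software had already removed background and spatial trend from the deposited intensity (its processed signal), array by array, with no scaling between arrays. The authors' deposited log2 table, made in a way the sources used here do not give, served as an alternative. Other deposited columns hold spot flags of 0 or 1.

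Control and outlier spots were left out, spots of a probe were averaged, and log2 signal minus the array's 75th percentile over gene probes was taken. Where every spot of a probe on an array was an outlier (1187 probe-array values), the mean over those spots was kept. A probe counted as well above background where at least 0.5 of its spots did. Probes were named by RefSeq accession through the GRCr8 gene table: 18005 have 1 symbol and 12362 none here. Groups were taken from titles and compared in 1 fit with limma 3.58.1 in R 4.3.3 (eBayes with trend, 2-sided, no covariates). A bound for a group with 0 arrays well above background puts each of its arrays at the dimmest probe still called well above background there, or at the probe's own level where higher. The fit was tested on simulated data. Figures were drawn with matplotlib 3.10.9. The number of arrays limits the precision. Probe sequences are not in the files used here, so hybridisation between the closely similar receptor copies could not be checked, and changes of the copies are uncertain to that degree.

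Members, gene lists and the naming rule were chosen with earlier results of these data known. The rule names up to 3 genes with the smallest p per list and comparison, plus Agtr2, Agt and Agtrap, and the 5 genes most like each receptor. Some genes of the lists enter the counts and are not reported here by name.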

Additional observations from a re-analysis of the deposited data

Results flagged for a closer look

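High-dose array 3 stood apart in Agtr1a, at -2.78 where the other 5 high-dose arrays lay between -1.61 and -1.04. The gap to its nearest neighbour was 0.672 of the group's range, above the critical value of 0.625 for 6 samples. Of the 12 sets of values tested in this way this was the one flagged, and chance flags about 1 in 20. On this array 0 of 10 Agtr1a spots and 29.3% of all probes were well above background, the lowest share of the 26 arrays, and the authors' deposited log2 value for Agtr1a on it was 4.20.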

How the results depend on the processing

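All 6 differences from saline kept their direction and passed the limma test under every setting tried, each array left out in turn included. Agtr1a ran from -2.90 to -1.81 (high dose), -1.94 to -1.51 (low dose) and -2.73 to -1.79 (valsartan), and Agtr1b from 1.67 to 2.27, 1.63 to 2.01 and 2.08 to 2.93. Between saline and treated arrays scan day could not be fitted, and dim signal limits Agtr1a on 3 treated arrays.

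Agtr1a, high against low dose, did not pass with the 75th percentile over probes well above background on all arrays (-0.34), normexp (-0.30), no background correction (-0.24), slide as random block (-0.55), scan day (-0.043), gain as a block or matched (-0.27 each), the 2 groups alone or averaged saline pairs (-0.67 each), or without dim arrays (-0.44), and turned to 0.12 with slide as fixed block; leaving out 1 array gave -0.78 to -0.44. Agtr1a, valsartan against low dose, did not pass with quantile normalisation (-0.94), that percentile (-0.52), normexp (-0.29), no correction (-0.29), the authors' deposited values (-0.99), random slide (-0.74) or gain (-0.18); leaving out 1 array gave -0.87 to -0.69, each of which passed. Agtr1b in that pair did not pass with the array median (0.66), random slide (0.82) or gain (0.19). Agtr1a, valsartan against high dose, turned to 0.21 (quantile), 0.063 (median), 0.019 (normexp), 0.17 (authors' deposited values), 0.41 (scan day) and 0.091 (gain, either way), and spanned -0.34 to 0.0050 with 1 array left out. Agtr1b, high against low dose, turned to -0.15 (median), -0.20 (fixed slide) and -0.22 (gain, either way). Anpep with valsartan turned to 0.093 (normexp) and 0.12 (no correction). The cause of each was not tested.

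The change of Agtr1b minus Agtr1a against saline was 4.49 with the high dose and 5.24 with valsartan, and 3.67 and 4.11 with normexp, 3.71 and 4.24 without correction. Probes called numbered 6044 with gain fitted and 6785 at matched gain (high dose against saline), 5219 with averaged pairs (low dose), and 2928 with gain (valsartan). For high against low dose they numbered 3579 (quantile), 9972 (median), 12575 (no correction), 3670 (authors' deposited values), 10521 (no filter), 1551 (random slide), 0 (scan day; limma, with 357 at an unadjusted p under 0.05), 93 (fixed slide) and 1 (gain, either way), and 3673 to 8239 with 1 array left out. For valsartan against low dose they numbered 13760 (normexp), 13629 (no correction), 13445 (no filter), 2018 (random slide) and 4 (gain). For valsartan against high dose they numbered 690 (quantile), 42 (median), 5 (normexp), 4 (no correction), 452 (authors' deposited values), 113 (no filter), 3 (random slide), 708 (scan day), 1121 (gain), 1038 (matched gain), 3 (2 groups alone), 77 (without saline arrays 4 and 8), 40 (averaged pairs), 2119 (without dim arrays) and 72 to 606 with 1 array left out.

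Replicate numbers did not pair the samples (r of same-numbered deviations -0.34 to 0.27). With them as a replicate block Agtr1a changed by -2.37, -1.70 and -2.48 against saline, Agtr1b by 1.91, 1.69 and 2.55, no call on either gene changed, and 62 probes were called between valsartan and the high dose. Normexp and no correction on the median spot signal, fixed slide, removal of dim arrays and the percentile over tested probes were chosen after seeing the data, and the planned versions on the mean signal were not run, the median signal being used here in its place.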
